A study of Mus musculus with 8 samples.

Results

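Of the 55376 genes in the counts table, 8 were examined here: the scavenger receptor genes Msr1, Cd36, Marco, Cd68, Scarb2, Olr1 and Stab1, and Cd5l. They were found by gene symbol, and each had 1 row in the table. The RNA came from macrophages grown from the bone marrow of male mice aged 13 weeks, with 3 mice of each genotype. All cultures held M-CSF at 50 ng/mL, the growth factor that drives marrow cells to become macrophages, and RNA was taken on day 8. The series, by its title, is about lowered DNMT3A in the blood system. The groups were HET (genotype label DNMT3A-HET) with IL-6, HET control, wild type (WT) with IL-6 and WT control, with 2 libraries each. IL-6 was given at 10 ng/mL from day 6 for 2 days, and control cultures had none. The labels state neither how the HET allele was made nor how the mice were divided over the libraries. The p-values accordingly reflect variation between libraries of a group, part of which may be technical.

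Scavenger receptors are surface or endosomal proteins of macrophages that bind modified lipoproteins, dying cells and microbes and carry them to lysosomes. They are grouped into classes by structure, not by common descent, and several of them feed the lipid loading that turns macrophages into foam cells. Cd5l encodes a secreted protein built of scavenger receptor cysteine-rich domains; macrophages make it, it circulates bound to IgM, and it can enter fat cells through CD36. In mouse macrophages Cd5l is a known target of the liver X receptors. The receptor that IL-6 engages acts through the transcription factor STAT3.

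Promoter sequences were taken from RefSeq (build GRCm38.p6), each with 250 bases before and 50 after the annotated start. The table matched 7 of the 8 genes, all but Msr1, which is therefore not shown. A sequence is printed for 3 genes that span the range of IL-6 responses: Cd5l, which was higher after IL-6, Cd36, which was lower, and the abundant Cd68, which did not pass the test. Capitals mark matches on either strand to 6 motifs: TTCNNNGAA (STAT), AGGTCA (nuclear receptor half-site), GAGGAA (ETS factors such as PU.1), TGANTCA (AP-1), TGANNNNGC (antioxidant or MAF half-site) and CACGTG (E-box, TFEB).
Cd5l (chr3:87357631-87357930, plus strand): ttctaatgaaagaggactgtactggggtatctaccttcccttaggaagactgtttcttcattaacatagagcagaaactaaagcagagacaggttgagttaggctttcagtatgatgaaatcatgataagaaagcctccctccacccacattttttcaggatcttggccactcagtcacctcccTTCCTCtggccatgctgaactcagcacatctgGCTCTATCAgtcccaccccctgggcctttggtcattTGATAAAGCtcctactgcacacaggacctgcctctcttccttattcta
Cd36 (chr5:17835847-17836146, minus strand): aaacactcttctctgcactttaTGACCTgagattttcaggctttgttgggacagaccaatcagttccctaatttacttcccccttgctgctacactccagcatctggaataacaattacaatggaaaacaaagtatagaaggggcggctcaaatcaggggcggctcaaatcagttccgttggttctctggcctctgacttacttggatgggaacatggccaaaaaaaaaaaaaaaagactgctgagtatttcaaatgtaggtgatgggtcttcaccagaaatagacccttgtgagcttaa
Cd68 (chr11:69666121-69666420, minus strand): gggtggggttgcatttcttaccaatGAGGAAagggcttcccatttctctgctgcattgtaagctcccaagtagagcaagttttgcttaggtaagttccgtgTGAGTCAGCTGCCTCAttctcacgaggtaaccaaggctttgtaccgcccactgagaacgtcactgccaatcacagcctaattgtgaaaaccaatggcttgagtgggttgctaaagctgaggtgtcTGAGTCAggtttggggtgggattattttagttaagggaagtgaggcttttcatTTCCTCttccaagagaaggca
The Cd36 and Scarb2 windows lie inside the gene spans of the counts table, because RefSeq places those starts further downstream. The STAT letters were found in 0 of the 7 windows, Cd5l included, and in 8.30% of 32841 windows of the same length. GAGGAA was in 5 of the 7 (Cd5l, Cd68, Marco, Olr1 and Stab1), against 28.3% of all windows. TGANNNNGC was in 3 (Cd5l, Cd68 and Scarb2; 41.3% of all). The nuclear receptor half-site was in 2 (Cd36 and Olr1; 16.3% of all), and the AP-1 letters in 2 (Cd68 and Olr1; 7.81% of all). CACGTG was in none (7.15% of all). In Cd68 the first AP-1 match lies within a longer stretch of capitals that also holds 2 matches to TGANNNNGC. These are matches of letters in a short window and say nothing of binding.

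Total counts were 50137897 in HET IL-6 number 2 and 18926641 to 24881197 in the other 7 libraries. Dnmt3a, the gene of the genotype label, was at 140.1 and 213 CPM (counts scaled to library size) in HET IL-6, 166 and 248 in HET control, 175 and 183 in WT IL-6 and 275 and 244 in WT control. The libraries labelled HET number 2 were thus not below WT, so calls of the members are also given without both of them where they change. Macrophage markers were present in every library, with 11 genes summing to 15021 to 15315 CPM in HET IL-6, 14800.1 to 14892 in HET control, 15207 to 16264 in WT IL-6 and 13426 to 14116 in WT control. Endothelial markers, of interest because some endothelium makes Stab1, summed over 8 genes to 140.3 to 141 CPM in HET IL-6, 88.9 to 98.8 in HET control, 101 to 102 in WT IL-6 and 115 to 143 in WT control, with Emcn at 0 in every library. The 6 adipocyte markers summed to at most 0.126 CPM in any library. Other marker lists moved with IL-6. The 8 megakaryocyte and erythroid markers summed to 272 to 296 CPM in HET IL-6, 123 to 132 in HET control, 197 to 202 in WT IL-6 and 124 to 131 in WT control. Most of that was Pf4, at 254.5 and 287 CPM in HET IL-6, 113 and 123 in HET control, 187 and 189 in WT IL-6 and 114 and 110.0 in WT control. The 8 monocyte markers summed to 153 to 159.7 CPM in HET IL-6, 228 to 239 in HET control, 170.0 to 177 in WT IL-6 and 183 to 187 in WT control, with none at 0 in both libraries of a group. The 8 T and NK cell markers summed to 93.4 to 99.4 CPM in HET IL-6, 60.8 to 62.4 in HET control, 92.8 to 115 in WT IL-6 and 59.8 to 75.5 in WT control, nearly all of it Il7r, with Cd3e, Cd3g and Ncr1 at 0. The part of these markers in the IL-6 results was not tested. These are bulk samples, in which fewer cells of a kind and less RNA per cell cannot be told apart.

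Per kilobase of exon, the genes spanned a very wide range of levels. Cd68, the lysosomal glycoprotein macrosialin widely used to mark macrophages, was highest at 956 to 1261 RPKM over the 8 libraries, above all other members in each one. Cd36, a class B receptor for fatty acids and oxidised lipoproteins, ran from 148 to 259.9 RPKM, and Stab1, a large endocytic receptor for acetylated lipoproteins and matrix protein fragments, from 153 to 233 RPKM. Those ranges overlap, and the means of 199.9 and 199 RPKM do not separate these genes. Msr1, the class A collagen-like receptor for modified lipoproteins, ran from 49.8 to 194 RPKM, and Scarb2, a lysosomal membrane protein, from 25.6 to 35.0 RPKM. Olr1, the lectin-like receptor for oxidised lipoproteins, was at 0.123 to 0.515 RPKM, with 11 to 49 counts per library. Cd5l had the widest spread of the tested members, with its highest library 16.1 times its lowest, from 23.5 to 378 RPKM.

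Marco, the class A receptor that binds bacteria and particles, was not detected above the floor of counting. It had 6 counts in all: 1 and 0 in HET IL-6, 1 and 2 in HET control, 0 and 2 in WT IL-6, and 0 and 0 in WT control. Every library was under the floor of 3 counts, which corresponds to 0.0608 to 0.161 CPM and covers counting error only. Marco was therefore not tested, and 7 of the 8 members passed the filter on low counts.

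**Figure D1:**
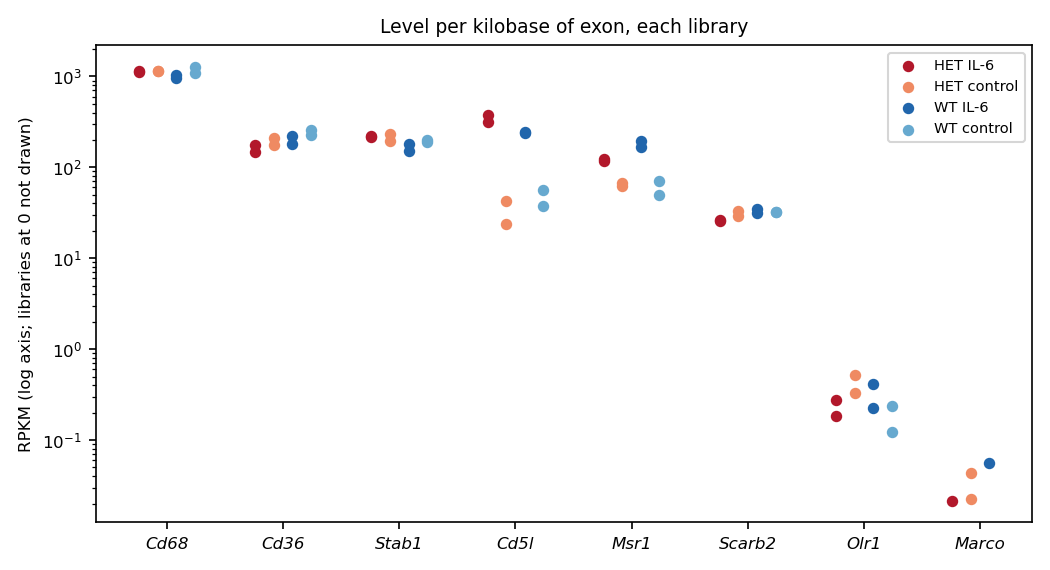
Level of each gene per kilobase of exon (RPKM, log axis) in each of the 8 libraries, coloured by group; libraries at 0 are not drawn. Cd5l and Msr1 are the genes whose IL-6 libraries sit well above their control libraries, and Cd68 stays between 956 and 1261 RPKM.

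IL-6 raised Cd5l and Msr1 in both genotypes, and no other member was called in either genotype alone. In HET, 2 of the 7 tested members were higher and 0 lower, where 8.87% of the 13721 tested genes were higher and 9.41% lower. In WT, 2 were higher and 0 lower, where 7.91% of tested genes were higher and 10.4% lower. Averaged over genotype, 2 were higher and 1 (Cd36) lower, beside 10.8% of tested genes higher and 12.8% lower. The median log2 fold change of the 7 members was -0.10, against -0.01 for all tested genes, and members lay on both sides of 0.

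Cd5l (chr3:87357881-87371073, plus strand, mm10; 6 exons) was at 635 and 769 CPM in HET IL-6 and at 47.8 and 87.8 CPM in HET control. In WT it was at 490.5 and 498 CPM with IL-6 and at 116 and 76.0 CPM in control. All 4 IL-6 libraries lay far above all 4 control libraries. The log2 fold change was 3.37 ± 0.37 in HET (edgeR adjusted p = 0.00320; here and below ± after a log2 value is the standard error), or 10.4-fold. In WT it was 2.37 ± 0.35 (adjusted p = 0.00987), or 5.15-fold, and averaged over genotype 2.87 ± 0.25 (adjusted p = 0.00103). The WT value kept its size but not its call without any single WT library: it was 2.38 without WT IL-6 number 1 (adjusted p = 0.0875), 2.36 without WT IL-6 number 2 (0.0693), 2.7 without WT control number 1 (0.0546) and 2.09 without WT control number 2 (0.0597). The HET and averaged calls held under every alternative run, with log2 fold changes of 3.00 to 3.88 in HET. By the spread of its log2 CPM over the 8 libraries, Cd5l ranked 22 among the 13721 tested genes. With IL-6, Cd5l was the highest member per kilobase after Cd68 in both genotypes, at 312 and 378 RPKM in HET and at 241 and 244 RPKM in WT.

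The IL-6 response of Cd5l was larger in HET than in WT by 1.01 ± 0.48 on the log2 scale, with a 95% interval of -0.21 to 2.23 (adjusted p = 0.306). The value moved with the HET control library that was kept. Leaving out HET control number 2 gave a difference of 1.51 (adjusted p = 0.00521), whereas leaving out HET control number 1 gave 0.64 (adjusted p = 0.233). Without both HET number 2 libraries it was 1.37 (adjusted p = 0.00135). With the replicate number as a block, on all 8 libraries, it was 1.03 (adjusted p = 0.0250). Without the block the difference did not pass, and the interval does not show that the genotypes respond alike.

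Msr1 (chr8:39581685-39642673, minus strand; 11 exons) was at 738 and 791 CPM in HET IL-6 and at 429 and 396 CPM in HET control. In WT it was at 1228 and 1058 CPM with IL-6 and at 316 and 446 CPM in control. IL-6 libraries were above control libraries in both genotypes, and the WT IL-6 libraries were the highest of all. The log2 fold change was 0.89 ± 0.13 in HET (adjusted p = 4.04e-04), or 1.85-fold, and 1.58 ± 0.13 in WT (adjusted p = 3.34e-06), or 3.00-fold. Averaged over genotype it was 1.24 ± 0.09 (adjusted p = 5.92e-07). These calls held under every alternative run, at 0.78 to 1.01 in HET and 1.36 to 1.85 in WT.

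Fitted to all 8 libraries without a replicate block, Msr1 was the 1 tested member whose IL-6 response passed the test for a difference between genotypes. With the block Msr1 was not called (-0.71, adjusted p = 0.0839) and Cd5l was, and with no filter on low counts Olr1 was called as well (-1.68, adjusted p = 0.0323). Without the block the count was 0 higher and 1 lower of 7, where 4.52% of tested genes had a higher and 3.6% a lower response in HET. The response of HET minus that of WT was -0.69 ± 0.19 (95% interval -1.10 to -0.29, adjusted p = 0.0391). It was negative under every alternative, from -0.96 to -0.47, but the call rested on most single libraries. It was -0.66 without HET IL-6 number 1 (adjusted p = 0.121), -0.76 without HET IL-6 number 2 (0.0719), -0.63 when HET control number 1 was left out (0.151), -0.75 when HET control number 2 was (0.0590) and -0.58 without WT IL-6 number 1 (0.175). Without both HET number 2 libraries it was -0.80 (adjusted p = 0.0602), and without both HET number 1 libraries -0.58 (0.331).

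**Figure D2:**
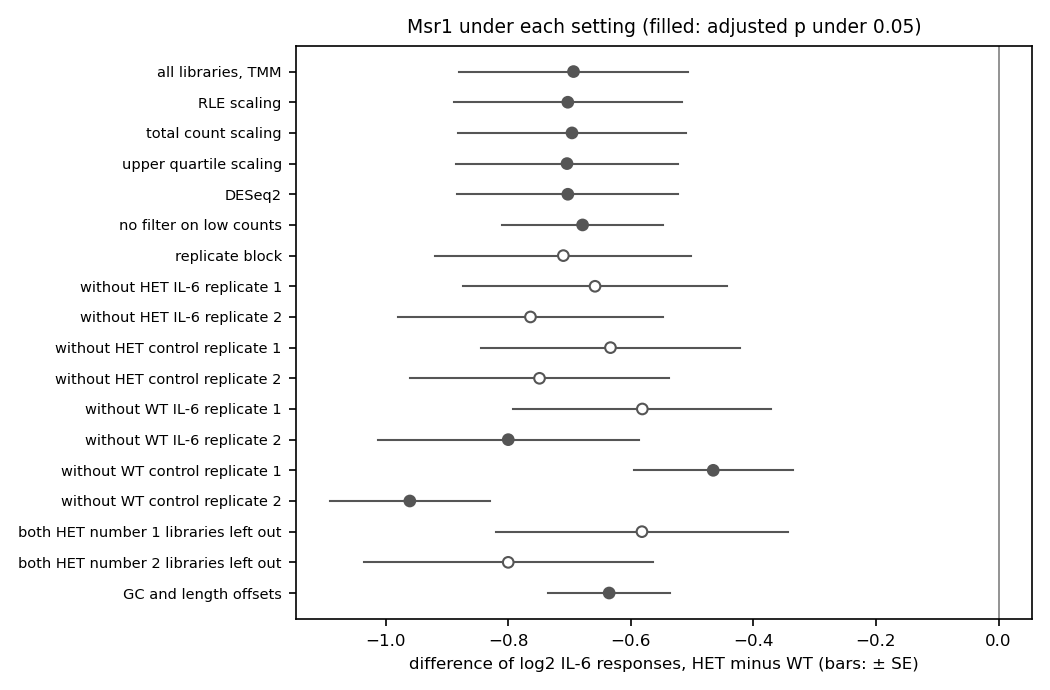
Difference of the log2 IL-6 response of Msr1, HET minus WT, with all libraries and under each alternative (bars: ± standard error; filled points: adjusted p under 0.05). All estimates lie below 0, between -0.96 and -0.47, and leaving out 5 of the 8 single libraries takes the adjusted p above 0.05.

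Cd36 (chr5:17781690-17888801, minus strand; 17 exons) was at 629 and 530.0 CPM in HET IL-6 and at 759.6 and 638 CPM in HET control. In WT it was at 786 and 645 CPM with IL-6 and at 821 and 933 CPM in control. Within each genotype both IL-6 libraries were below both control libraries, in HET by a narrow gap. The log2 fold change was -0.27 ± 0.12 in HET (adjusted p = 0.138) and -0.29 ± 0.12 in WT (adjusted p = 0.106), and -0.28 ± 0.08 averaged over genotype (adjusted p = 0.0241). The averaged call was lost without HET IL-6 number 2 (-0.21, adjusted p = 0.148), HET control number 1 (-0.22, 0.137), WT IL-6 number 2 (-0.21, 0.0866) and WT control number 2 (-0.24, 0.112). In WT the value was called with no filter on low counts (-0.29, edgeR adjusted p = 0.0238), and it was -0.44 without WT IL-6 number 1. Averaged over genotype, Cd36 was at -0.27 without both HET number 1 libraries (adjusted p = 0.114) and at -0.28 without both HET number 2 libraries (0.0911).

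Of the other members, Cd68 (chr11:69664213-69666153, minus strand; 6 exons), the most abundant, was at 1389 and 1431 CPM in HET IL-6, 1439 and 1439.8 in HET control, 1202 and 1289 in WT IL-6 and 1585.5 and 1369 in WT control. Its log2 fold change with IL-6 was -0.03 ± 0.09 in HET (adjusted p = 0.861) and -0.25 ± 0.09 in WT (adjusted p = 0.0637). The WT libraries were apart, and 5 of the alternatives called that value, among them DESeq2 (-0.24, adjusted p = 0.0391) and the fit without WT control number 2 (-0.35, adjusted p = 0.00632). Scarb2 (chr5:92441314-92506833, minus strand; 12 exons) was at 164 and 161 CPM in HET IL-6, 207 and 181 in HET control, 219.8 and 195 in WT IL-6 and 203 and 203 in WT control. With IL-6 it was at -0.26 ± 0.09 in HET (adjusted p = 0.0536), where 9 of the alternatives, among them the fits without each WT library, called it (adjusted p = 0.00970 to 0.0470), and at 0.03 ± 0.09 in WT (adjusted p = 0.843).

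Stab1 (chr14:31139013-31168641, minus strand; 58 exons) was at 2251 and 2225 CPM in HET IL-6, 2399.6 and 2021 in HET control, 1569 and 1875 in WT IL-6 and 2044 and 1956 in WT control. Exons of Nt5dc2 on the opposite strand cover 112 of its 10288 exon bases (1.09%), and whether counting used strand is not given in the sources used here. The IL-6 response of Stab1 was 0.02 ± 0.10 in HET (adjusted p = 0.933) and -0.22 ± 0.10 in WT (adjusted p = 0.165); without WT IL-6 number 2 the WT value was -0.35 (adjusted p = 0.0450). Olr1 (chr6:129485244-129507165, minus strand; 8 exons) was at 0.663 and 0.993 CPM in HET IL-6, 1.18 and 1.84 in HET control, 1.49 and 0.804 in WT IL-6 and 0.438 and 0.838 in WT control. Its estimates went in opposite directions, -0.81 ± 0.38 in HET (adjusted p = 0.169) and 0.89 ± 0.44 in WT (adjusted p = 0.197). The difference was -1.70 ± 0.59 (adjusted p = 0.0957) at 16 and 49 counts in HET IL-6, 27 and 44 in HET control, 36 and 15 in WT IL-6 and 11 and 19 in WT control. It was called without WT IL-6 number 2 (-2.05, adjusted p = 0.0480) and without WT control number 2 (-2.22, 0.0353).

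**Figure D3:**
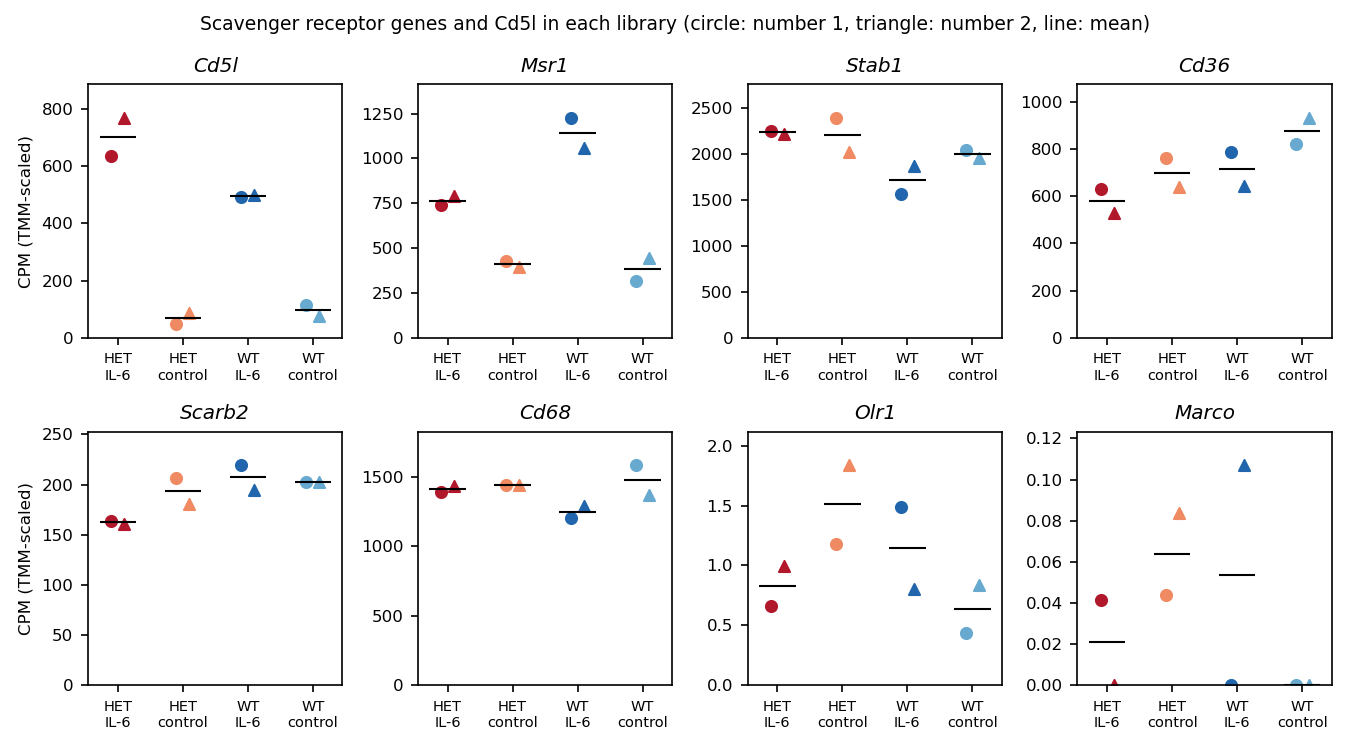
TMM-scaled CPM of the 8 genes in each library, by group (circles: number 1, triangles: number 2, lines: mean of 2 libraries; each axis starts at 0). The IL-6 libraries of Cd5l (490.5 to 769 CPM) are all above its control libraries (47.8 to 116 CPM), and Msr1 is highest in WT IL-6 at 1058 and 1228 CPM.

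**Figure D4:**
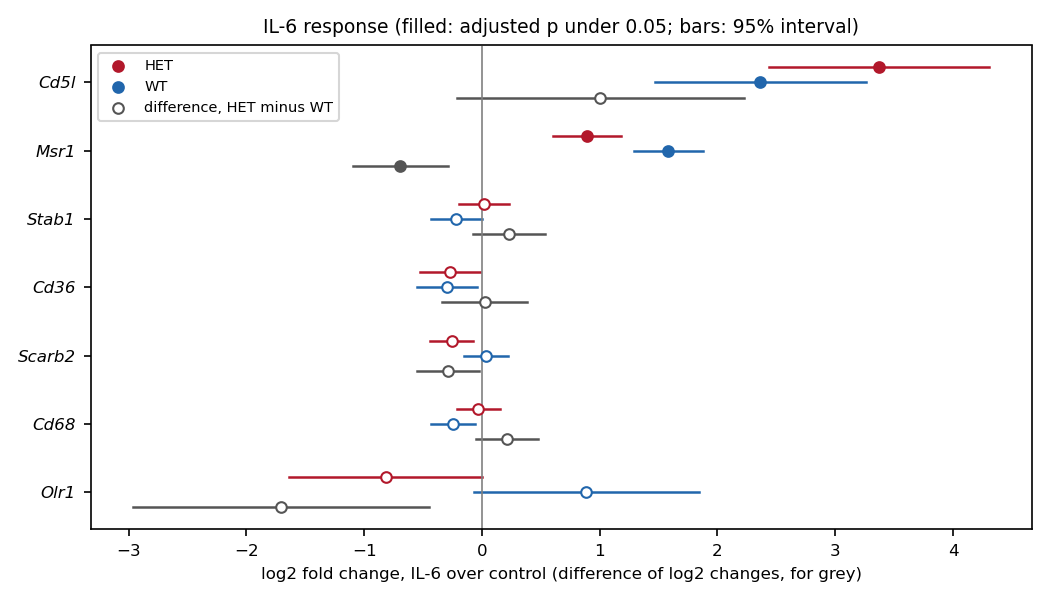
Log2 fold change of IL-6 over control in HET and in WT, and the difference of the responses (HET minus WT), for the 7 tested members, with 95% intervals (filled: adjusted p under 0.05). Cd5l (3.37 in HET, 2.37 in WT) and Msr1 (0.89 in HET, 1.58 in WT) are filled for the response, and Msr1 alone (-0.69) for the difference.

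Without IL-6, no member passed the test between genotypes. Of the 7 tested, edgeR called 0 higher and 0 lower in control HET cultures than in control WT cultures, where 2.81% of tested genes were higher and 2.05% lower. DESeq2 called 0 of the 7, and 832 genes in all. At an unadjusted p under 0.05 there were 2 members, Cd36 and Olr1. The share of all tested genes at that unadjusted threshold is not given here, so the 2 cannot be set against it. Cd36 was at -0.33 ± 0.12 (adjusted p = 0.129), with both HET control libraries below both WT control libraries. Olr1 was at 1.26 ± 0.43 (adjusted p = 0.109), with both HET libraries above both WT libraries at 11 to 44 counts. Cd5l was at -0.50 ± 0.34 (adjusted p = 0.475), and the HET and WT control libraries overlapped. Without HET control number 2 Cd5l was called lower, at -1.0 (adjusted p = 0.0370), and likewise without both HET number 2 libraries (-1.0, adjusted p = 0.00423). Msr1 was at 0.11 ± 0.13 (adjusted p = 0.666), but with offsets for GC content and exon length it was called higher in HET, at 0.31 (adjusted p = 0.0216). With no filter on low counts, Cd36 (-0.32, adjusted p = 0.0184) and Olr1 (1.26, 0.0317) were called.

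After IL-6, 1 of the 7 tested members was higher in HET than in WT (Stab1) and 2 were lower (Msr1 and Scarb2), where 13.2% of tested genes were higher and 8.8% lower. Msr1, at 738 and 791 CPM in HET IL-6 against 1228 and 1058 CPM in WT IL-6, was at -0.58 ± 0.13 (adjusted p = 0.00893). That call was lost without HET IL-6 number 1 (-0.54, adjusted p = 0.0648), without WT IL-6 number 1 (-0.47, 0.131) and without both HET number 1 libraries (-0.52, 0.0604). Scarb2 was at -0.36 ± 0.09 (adjusted p = 0.0115), with HET at 164 and 161 CPM below WT at 219.8 and 195 CPM. It was not called without HET IL-6 number 1 (-0.38, adjusted p = 0.0666), HET IL-6 number 2 (-0.36, 0.0941) or WT IL-6 number 1 (-0.27, 0.135), nor without both HET number 2 libraries (-0.34, 0.161). Stab1 was at 0.38 ± 0.10 (adjusted p = 0.0175), with HET at 2251 and 2225 CPM above WT at 1569 and 1875 CPM. Stab1 was not called without HET IL-6 number 1 (0.36, adjusted p = 0.121), HET IL-6 number 2 (0.37, 0.12) or WT IL-6 number 1 (0.26, 0.200), nor without both HET number 2 libraries (0.39, 0.12).

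Cd5l after IL-6 was at 635 and 769 CPM in HET, above 490.5 and 498 CPM in WT, with a log2 fold change of 0.51 ± 0.33 (adjusted p = 0.339). Fitted on the IL-6 libraries alone, the same difference was 0.50 (adjusted p = 0.00193). It was also called with HET control number 1 left out (0.51, adjusted p = 0.0391) or HET control number 2 left out (0.51, 0.0406), which enter that comparison through the estimate of spread, and without both HET number 1 libraries (0.64, 0.0182). Cd36 after IL-6 was at -0.30 ± 0.12 (adjusted p = 0.0791), again with both HET libraries below both WT libraries, and it was called without WT IL-6 number 2 (-0.44, adjusted p = 0.0208), by DESeq2 (-0.32, 0.0333), with no filter (-0.29, 0.0204) and on only the groups compared (-0.31, 0.0437).

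Averaged over treatment, Cd36 and Scarb2 were lower and Stab1 higher in HET, 1 higher and 2 lower of 7 beside 11.9% and 7.99% of tested genes. Cd36 was at -0.32 ± 0.08 (adjusted p = 0.0193), Scarb2 at -0.21 ± 0.06 (adjusted p = 0.0292) and Stab1 at 0.26 ± 0.07 (adjusted p = 0.0223). These genotype calls changed with offsets for the GC content and exon length of genes, applied together, so that their parts cannot be told apart. With them the number of genes called fell to 386, against 2729 without them. With those offsets none of the 3 members was called, at -0.10 for Cd36 (adjusted p = 0.521), -0.13 for Scarb2 (0.158) and 0.05 for Stab1 (0.663). GC content, taken from the longest annotated transcript, is 38.4% in Cd36, 46.3% in Scarb2 and 57.3% in Stab1. Exon length, over all merged exons, is 3590 bases in Cd36, 6285 in Scarb2 and 10288 in Stab1. Msr1 was at -0.23 ± 0.09 averaged over treatment (adjusted p = 0.0930), and was called without WT control number 1 (-0.35, adjusted p = 0.00110), by DESeq2 (-0.24, 0.0334) and with no filter (-0.22, 0.0101). With the offsets it was at -0.0072 (adjusted p = 0.965). The Stab1 call after IL-6 was also lost with the offsets (0.09, adjusted p = 0.488), whereas Msr1 was called lower after IL-6 at a smaller value of -0.32 (adjusted p = 0.00824), and Scarb2 at -0.25 (adjusted p = 0.0229). GC content of Msr1, by the same measure, is 38.4% and its exon length 6344 bases. Without both HET number 2 libraries the averaged values were -0.20 for Cd36 (adjusted p = 0.320), -0.16 for Scarb2 (0.398) and 0.33 for Stab1 (0.0830). Single libraries also ended these calls. Cd36 lost its call without HET IL-6 number 2 (-0.26, adjusted p = 0.0960), HET control number 2 (-0.25, 0.101), WT IL-6 number 1 (-0.24, 0.0869) and WT control number 2 (-0.27, 0.111). Scarb2 lost it without HET IL-6 number 1 (-0.22, 0.0854), HET IL-6 number 2 (-0.21, 0.108), HET control number 2 (-0.16, 0.160) and WT IL-6 number 1 (-0.16, 0.126). Stab1 lost it without HET IL-6 number 1 (0.25, 0.0870), HET IL-6 number 2 (0.26, 0.0879), HET control number 1 (0.20, 0.124) and WT IL-6 number 1 (0.20, 0.0954).

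**Figure D5:**
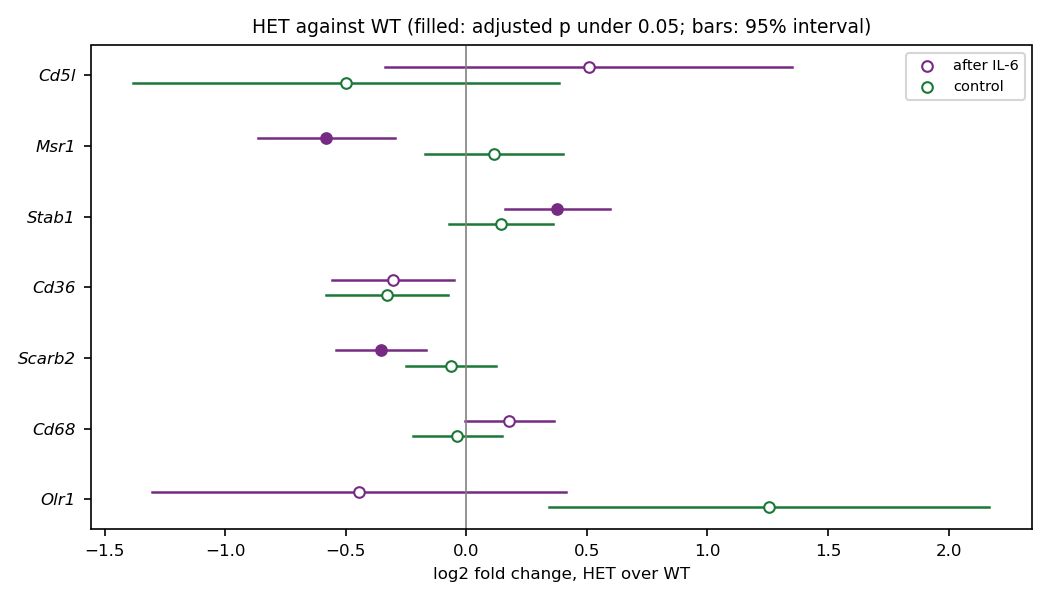
Log2 fold change of HET over WT after IL-6 and in control for the 7 tested members, with 95% intervals (filled: adjusted p under 0.05). After IL-6, Msr1 (-0.58) and Scarb2 (-0.36) are filled below 0 and Stab1 (0.38) above 0, and no control value is filled.

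Among themselves the members followed several patterns over the 8 libraries, given here as descriptions of libraries that share treatments and genotypes. Pearson's r of log2 CPM was 0.83 between Cd5l and Msr1, 0.82 between Cd36 and Scarb2 and 0.70 between Cd68 and Stab1, and it was -0.85 between Msr1 and Cd68. Across 9288 genes at a mean of at least 5 CPM, the pattern most like that of Msr1 was that of Pros1 (r = 0.999), which encodes protein S, an anticoagulant that also bridges dying cells to TAM receptors. Dab2, an endocytic adaptor, followed (r = 0.997). Pros1 was at 80.6 to 90.1 CPM in HET IL-6, 49.2 to 52.2 in HET control, 114 to 128 in WT IL-6 and 42.3 to 53.4 in WT control. Pros1 was chosen for this pattern, so no test is given for it. The genes most like Cd5l were Mon2 and Fcrl1 (r = 0.994 each). For the other members they were Lrrc57 and Lrpprc for Cd36 (0.969 and 0.965), Cerk and Natd1 for Cd68 (0.983 each), Fer and Sgo2a for Scarb2 (0.985 each), Nemp2 and Dyrk2 for Olr1 (0.944 and 0.942), and Rnf40 and Mospd3 for Stab1 (0.968 and 0.967).

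Fcrl1, an Fc receptor-like gene, also lies next to Cd5l, 5.31 kb away on the same strand (chr3:87376387-87402934). It was at 45.0 to 45.7 CPM in HET IL-6, 18.3 to 21.2 in HET control, 40.0 to 43.3 in WT IL-6 and 21.5 to 26.01 in WT control. It was chosen for its likeness to Cd5l, so no test is given. A window of 250 kb around each member was then examined, a choice made after the values were seen. Values for these neighbours are log2 fold changes of IL-6 over control, averaged over genotype. Fcrls, another Fc receptor-like gene, 94.1 kb from Cd5l on the opposite strand, averaged 862 CPM over the libraries and was at 2.11 ± 0.07 (adjusted p = 1.04e-10). Fcrl5, between them in distance and at a mean of only 0.289 CPM, was at 1.55 ± 0.55 (adjusted p = 0.0535). The neighbours Etv3 (0.08, adjusted p = 0.407), Arhgef11 (-0.02, 0.819) and Kirrel (0.42, 0.491, at a mean of 0.346 CPM) were not called. Beside Cd36, Sema3c, 51.4 kb away, was higher by 1.98 ± 0.10 (adjusted p = 5.66e-09), opposite in sign to Cd36. Called neighbours also lay near other members, but most tested genes in the windows were not called. Of all tested genes, 10.8% were higher and 12.8% lower in the same comparison, so the called neighbours are descriptions only. Near Scarb2, Cxcl10 was lower at -1.25 (adjusted p = 7.58e-09), as were Cxcl9 and Cxcl11 at means of 0.414 and 0.411 CPM. Naaa (0.43) and Uso1 (0.40), also near Scarb2, were higher. Near Cd68, Trp53 was lower and Dnah2, at a mean of 0.909 CPM, higher. Gabarapl1 was lower and Cd69 higher near Olr1, and Sh3bp5 was lower near Stab1.

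Other scavenger receptors, from a list of 23 genes of which 19 were tested, also went both ways with IL-6: averaged over genotype 2 were higher and 4 lower, beside 10.8% and 12.8% of all tested genes, with a median log2 fold change of -0.12. Mrc1, the macrophage mannose receptor, was at 4259.9 and 4461 CPM in HET IL-6, 1473 and 1603 in HET control, 3920.1 and 4024 in WT IL-6 and 2051 and 2099 in WT control. Mrc1 was higher in both genotypes, by 1.22 ± 0.06 averaged (adjusted p = 1.57e-09). Cd163, the haemoglobin scavenger receptor and, like Cd5l, a member of the cysteine-rich domain family, was lower, at -0.82 ± 0.07 (adjusted p = 1.46e-06). It was at 18.6 and 22.7 CPM in HET IL-6, 43.1 and 41.0 in HET control, 26.4 and 29.7 in WT IL-6 and 42.9 and 44.0 in WT control. Of the 19, 4 had a higher and 4 a lower IL-6 response in HET than in WT, beside 4.52% and 3.6% of all tested genes. The difference was 0.79 ± 0.14 for Scarb1 (adjusted p = 0.00440), the receptor for high-density lipoprotein.

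Of 24 tested genes of lipid uptake and storage, from a list of 25, IL-6 called 13 higher and 2 lower in HET, beside 8.87% and 9.41% of all tested genes. In WT it called 3 higher and 7 lower, beside 7.91% and 10.4%. By the test of the difference itself, 7 of the 24 had a higher and 2 a lower response in HET. Of all tested genes, 4.52% had a higher and 3.6% a lower response. Fabp5, a fatty acid carrier, was at 254 and 253 CPM in HET IL-6, 78.0 and 74.9 in HET control, 143 and 203 in WT IL-6 and 166 and 113 in WT control. It was higher with IL-6 in HET by 1.73 ± 0.20 (adjusted p = 4.46e-04), while in WT the libraries overlapped (0.31 ± 0.19, adjusted p = 0.333), and the difference was 1.42 ± 0.27 (adjusted p = 0.0183). Averaged over genotype, Hilpda, a lipid droplet protein, was higher by 0.74 ± 0.08 (adjusted p = 8.20e-06) and Acsl1, an acyl-CoA synthetase, by 0.60 ± 0.06 (adjusted p = 2.94e-06). Lpl, lipoprotein lipase, was lower at -0.50 ± 0.07 (adjusted p = 5.97e-05). Lysosomal membrane genes, from the compartment of Cd68 and Scarb2, numbered 20. In HET, 5 were higher and 0 lower with IL-6, beside 8.87% and 9.41% of all tested genes. In WT, 0 were higher and 4 lower, beside 7.91% and 10.4%. By the test of the difference, 3 had a higher and 0 a lower response in HET, beside 4.52% and 3.6%. Averaged over genotype 3 were higher and 1 lower, beside 10.8% and 12.8% of all tested genes. Cd63, a tetraspanin of late endosomes and lysosomes, was higher by 0.33 ± 0.06 averaged over genotype (adjusted p = 5.48e-04).

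Among 26 transcription factors known to act on macrophage receptor or lysosomal genes, 5 were higher and 7 lower with IL-6 averaged over genotype, beside 10.8% and 12.8% of all tested genes. Tfec, a macrophage member of the TFE family, was higher by 0.90 ± 0.07 (adjusted p = 1.63e-07) and Stat3 by 0.56 ± 0.06 (adjusted p = 4.76e-06), while Klf2 was lower at -1.01 ± 0.10 (adjusted p = 5.51e-06). Of 21 tested co-receptors and signalling partners, 8 were higher and 5 lower, beside the same shares. Thbs1, a ligand of CD36, was higher by 0.85 ± 0.10 (adjusted p = 1.48e-05). Ighm, the IgM heavy chain, whose protein carries the Cd5l product in blood, was lower at -2.44 ± 0.16 (adjusted p = 1.52e-06). Its fall with IL-6 was smaller in HET than in WT. The response of HET minus that of WT was 2.23 ± 0.33 (adjusted p = 0.00333). These lists and members were drawn up with earlier results of these data known, so their counts are descriptions. Values and counts of the list genes are given with the main settings only, also where they compare the genotypes.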

How the data were processed

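The authors deposited raw counts per gene, the whole-number reads assigned to each gene of a table of 55376 genes, for 8 libraries of polyadenylated RNA made with a stranded kit, per the labels. Per the submitters' processing notes, the build was mm10 and the tools were featureCounts 1.6.2, STAR 2.7.9a, fastp 0.12.4 and SAMtools 1.9. The sources used here do not give how each was run, the annotation release or the strand setting, so reads of overlapping genes on opposite strands cannot be told apart. Gene positions matched GENCODE release M21 for 99.45% of genes, and 25 of 26 symbols that had been turned into dates were restored by position.

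From the counts, a quasi-likelihood F test with robust dispersions was fitted in R 4.3.3 with edgeR 4.0.16 to all 8 libraries, with 1 mean for each of 4 groups, TMM scaling and 4 residual degrees of freedom, on the 13721 genes that filterByExpr kept at a minimum count of 10. Tests were 2-sided, p-values were adjusted over all tested genes by the Benjamini-Hochberg method, and a gene was called at an edgeR adjusted p under 0.05. The standard error is the size of the log2 fold change divided by the root of F. CPM values are TMM-scaled, and RPKM values divide them by the exon length in the deposited table. Likeness is Pearson's r of log2 CPM with a prior count of 2. The script was tested on simulated data. The other settings were RLE, total-count and upper quartile scaling, DESeq2 1.42.0, no filter, only the groups compared, a replicate block, single libraries and HET pairs left out, and GC and length offsets (mgcv 1.9.3).

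All 8 members are named in every comparison. From each list, up to 4 genes with the smallest p for IL-6 averaged over genotype, and up to 2 for each of the genotype comparison and the difference of responses, could be named, and for each member the 2 genes most like it. Members and lists were chosen with earlier results of these data known. Depth was 18926641 to 50137897 counts per library, and libraries within each group differed beyond counting noise (chi-square per gene 6.39 to 18.4). Some genes of the lists are not reported here.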

Additional observations from a re-analysis of the deposited data

Results flagged for a closer look

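The IL-6 response of Msr1 is listed because it differed between the genotypes by a test of the difference itself. The response of HET minus that of WT was -0.69 on the log2 scale (edgeR adjusted p = 0.0391), with Msr1 at 738 and 791 CPM in HET IL-6, 429 and 396 in HET control, 1228 and 1058 in WT IL-6 and 316 and 446 in WT control. The call was lost under 8 of 17 alternatives, among them the replicate block (-0.71, adjusted p = 0.0839) and the leaving out of 5 of the 8 single libraries, while the sign held in all 17. All 4 IL-6 libraries were above all 4 control libraries.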

How the results depend on the processing

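Of 868 member values recomputed under the alternatives, 738 kept their direction and their side of the threshold, 53 lost a call, 45 gained one and 32 changed sign. The 738 include values that were not called with the main settings and stayed so. They therefore do not measure how far the calls held. No value was called where it changed sign, nor with the main settings; the causes were not tested. The rise of Msr1 with IL-6 in both genotypes and that of Cd5l in HET kept their calls under every alternative run. Averaged over treatment, the HET against WT call was lost under 8 of 17 alternatives for Stab1, 7 for Scarb2 and 6 for Cd36.

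Leaving out 1 library at a time, the number of members called by edgeR ran from 1 to 2 for IL-6 in WT, 2 to 3 in HET and 2 to 3 averaged over genotype. It ran from 0 to 1 for HET against WT in control, 0 to 4 after IL-6, 0 to 4 averaged over treatment and 0 to 2 for the difference of responses. Over all genes the counts ran from 1577 to 3073, 1203 to 3061, 2301 to 3544, 33 to 1304, 879 to 4000.0, 940.0 to 4500.0 and 304 to 2123 in the same order of comparisons. Where a group keeps 1 library, that library is assumed to vary like the others.

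Without both HET number 1 libraries, the genes called were 697 for IL-6 in HET, 1724 averaged over genotype, 79, 1042 and 720.0 for HET against WT in control, after IL-6 and averaged, and 188 for the difference. Members called were then 1 after IL-6, 1 averaged over treatment and 0 for the difference. Without both HET number 2 libraries, the genes called were 835, 1715, 203, 862, 435 and 428 for the same comparisons, and the members called 1 in control, 1 after IL-6 and 0 averaged over treatment.

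With GC and length offsets, genes called were 1581 after IL-6 and 386 averaged over treatment for HET against WT, against 3021 and 2729 without them, and 1718 for the difference. Members called were then 5 for IL-6 averaged over genotype, 1 for HET against WT in control and 0 averaged over treatment. With no filter, HET against WT in control called 1078 genes and 2 members, and the difference called 2 members. Fitted on only the groups compared, 3945 genes were called for IL-6 in HET, 437 for HET against WT in control, and 5 members after IL-6. Scaling to total counts moved the share of higher genes among those called for IL-6 averaged over genotype to 34.8% (1193 higher, 2234 lower), against 1484 higher and 1759 lower with TMM, and in WT to 34.5% (903 higher, 1712 lower), against 1086 higher and 1429 lower.

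Libraries of the same number correlated in their deviations from group means at 0.15 in HET and -0.11 in WT. The main fit did not take the numbers as pairs. With 2 libraries per group, these values cannot decide whether libraries of the same number belong together. In HET, Dnmt3a was at 140.1 (IL-6) and 166 (control) CPM in number 1, and at 213 and 248 in number 2. Fits with a replicate block are therefore also given. With a replicate block, 339 genes were called for HET against WT in control and 506 for the difference, where Msr1 was not called (-0.71, adjusted p = 0.0839) and Cd5l was (1.03, adjusted p = 0.0250); Stab1 averaged over treatment lost its call (0.26, adjusted p = 0.0502). A replicate block with the WT numbers crossed, chosen after seeing the data, called 5 members and 4443 genes for IL-6 in WT.

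Sign changes were as follows. For Scarb2 with IL-6 in WT the value was -0.0063 with total-count scaling, -0.0107 with the offsets and -0.0565 to 0.12 leaving out single libraries. For Stab1 with IL-6 in HET it was -0.0236 with total-count scaling, -0.0183 with the offsets, -0.0917 without both HET number 2 libraries and -0.10 to 0.15 leaving out single libraries. Cd68 with IL-6 in HET was 0.0031 without both HET number 1 libraries. Olr1 with IL-6 averaged over genotype was -0.0042 with total-count scaling and -0.23 to 0.30 leaving out single libraries. For HET against WT in control, leaving out single libraries gave -0.11 to 0.38 for Msr1, -0.14 to 0.0739 for Cd68 and -0.16 to 0.0294 for Scarb2, which was 0.0288 without both HET number 2 libraries. After IL-6, Olr1 ran from -0.83 to 0.0949. Averaged over treatment, Cd68 was -0.0272 with the offsets, and Cd5l was -0.0017 with RLE scaling, -0.0018 with DESeq2, -0.0146 with the replicate block, -0.32 without both HET number 2 libraries, -0.0558 with the offsets and -0.25 to 0.19 leaving out single libraries. The difference of responses of Cd36 ran from -0.12 to 0.17.

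Depth limits Marco, with 6 counts in all, and Olr1, with 11 to 49 counts per library. Each group held 2 libraries.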
